A study of Mus musculus with 14 samples.

Results

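The mast cell genes measured here were *Mcpt1*, *Mcpt2*, *Mcpt4*, *Cma1*, *Tpsb2* and *Cpa3*, which code for proteases of the secretory granule, and *Kit* and *Fcer1a*, which code for surface receptors. They were chosen by name, as the probes that carry 1 of these 8 symbols, and they account for 9 of the 55681 probes on the array and 8 of its 36161 names. RNA of 14 samples was hybridized to 1 one-color array each. The groups were whole small intestine of C57BL/6J mice (3 arrays), tissue adjacent to adenomas of APCmin/+ mice (2), macroscopic adenomas of APCmin/+ mice (3), whole colon of C57BL/6J mice (3) and CT26 (3), a colon carcinoma cell line derived from a BALB/c mouse. The study's sample list places all adenoma and adjacent pieces in a single APCmin/+ mouse, so that the spread in these groups is that between pieces of tissue and not between animals, and the p-values below measure no more than that. It also places 1 colon sample in an APCmin/+ mouse, although the labels give C57BL/6J for every colon array. The wild-type mice were adult. Per the study's methods, APCmin/+ mice in which suffering was seen were given the analgesic buprenorphine, and whether the mouse sampled here was among them is not given in the sources used here. The APCmin/+ mice carry a germline truncating mutation of *Apc*, a Wnt pathway inhibitor, and develop intestinal adenomas.

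Mast cells are tissue leukocytes that store proteases, histamine and heparin in granules and release them when antigen cross-links IgE bound to their high-affinity receptor. In the mouse they are divided into a mucosal type, which lies in the gut epithelium and lamina propria, expands in helminth infection and carries the chymases encoded by *Mcpt1* and *Mcpt2*, and a connective-tissue type of the submucosa, skin and peritoneum, which carries the chymases encoded by *Mcpt4* and *Cma1*, the tryptase encoded by *Tpsb2* and carboxypeptidase A3. KIT is the receptor for stem cell factor and is required for mast cell survival. In the gut wall it also marks the interstitial cells of Cajal, the pacemakers of smooth muscle.

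Signals are given as scaled log2 signals, that is, the log2 of the background-subtracted intensity minus the 75th percentile of the array, so that 0 is the level of the 75th percentile and a step of 1 is a doubling. The scale compares arrays for 1 probe and not different probes. A spot is called well above background by the scanner software, and between 46.8% and 58.2% of the probes were so on an array. Each pair of groups was compared with limma, and a gene was called where the log2 difference was 1.2 or more in either direction and the p adjusted by Benjamini-Hochberg was no higher than 0.01. In these bulk samples fewer cells of a type and less RNA per cell cannot be told apart.

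Colon replicate 3 stood apart from its group. Its correlation over all probes was 0.9374 to 0.9392 with the other colon arrays and 0.96 to 0.9663 with the small intestine arrays. The median scaled log2 signal of 10 enterocyte genes was 5.05 on it, against -2.66 and -2.26 on the other colon arrays and 5.78 to 8.81 in small intestine. The median of 10 colonocyte genes was 0.14 on it and 5.3 on both other colon arrays. Some differences of the members from colon are therefore also given without this array. Differences of other genes from colon, and the correlations over tissue arrays, are given with it only. All 8 epithelial genes listed were well above background on every tissue array, and 3 to 4 of them on a CT26 array.

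**Figure D1:**
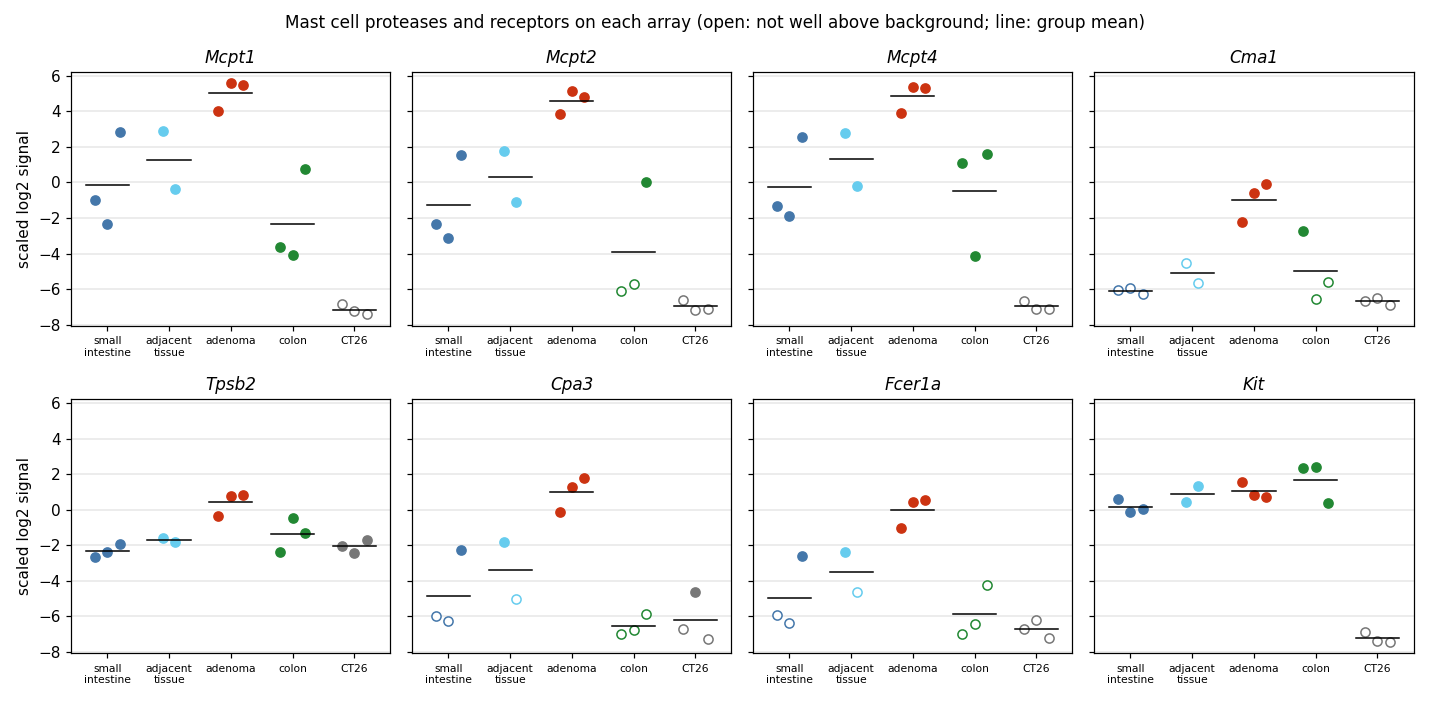
Scaled log2 signal (vertical axis) of the 8 mast cell genes on each of the 14 arrays, by group, with replicates from left to right. Filled points are well above background, open points are not, and the line is the group mean. The 3 adenoma arrays lie above every other array for all proteases and for Fcer1a, while Kit is spread over all tissues and low in CT26 alone.

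The chymase genes are neighbours on chromosome 14 and resemble each other, so the bases that separate their probes are shown. In the files' build NCBI37/mm9 the *Mcpt1* probe lies at chr14:56638928-56638987 on the plus strand, that of *Mcpt2* at chr14:56663261-56663320 on the plus strand, that of *Mcpt4* at chr14:56678589-56678648 on the minus strand and that of *Cma1* within chr14:56561491-56562550 on the minus strand, an interval longer than the probe. The end of the *Mcpt1* probe and the start of the *Mcpt2* probe cover matching stretches of 17 bases, of which 15 are identical. The capitals mark the bases that differ.
Mcpt1: aagtagctgaGaagTct
Mcpt2: aagtagctgaAaagCct
None of the member probes shared a run of 20 or more bases with another probe, except that of *Mcpt4*, which shared 27 bases with the probe of the pseudogene *Mcpt-ps1*. The capitals below mark that run, from base 13 of the *Mcpt4* probe.
Mcpt4 and Mcpt-ps1: TCTGTGATGATGGACTGTTCCCTGTAA
Values of *Mcpt4* and *Mcpt-ps1* are therefore uncertain to the extent that transcripts of one bind the probe of the other, which was not tested. Probes were compared with probes and not with transcripts. Whether the transcript of one chymase gene binds the probe of another was therefore not tested for the other chymase probes either.

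The promoters available for the members other than *Kit* are shown with the motif bound by GATA factors. The *Kit* window held no match and is described below without its letters. The choice of this motif followed a result of these data, as *Gata2*, a GATA factor of the mast cell lineage, was called higher in adenomas (below). Its mean was -1.02 in adenomas and 0.93 in CT26, where the chymase genes were not well above background. *Gata1* was well above background on 2 of 3 adenoma arrays and on no other array. Whether a GATA factor acts on these genes was not tested. The 250 bases before the start of transcription were taken from RefSeq for the build GRCm38.p6, which held a window for 6 of the 8 genes, namely all but *Mcpt2* and *Tpsb2*. The capitals mark GATA with A or T before it and A or G after it, on either strand. *Mcpt1* lies at chr14:56017714-56017963 on the plus strand, *Mcpt4* at chr14:56062311-56062560, *Cma1* at chr14:55944676-55944925, *Cpa3* at chr3:20242182-20242431 and *Fcer1a* at chr1:173227230-173227479, these 4 on the minus strand.
Mcpt1: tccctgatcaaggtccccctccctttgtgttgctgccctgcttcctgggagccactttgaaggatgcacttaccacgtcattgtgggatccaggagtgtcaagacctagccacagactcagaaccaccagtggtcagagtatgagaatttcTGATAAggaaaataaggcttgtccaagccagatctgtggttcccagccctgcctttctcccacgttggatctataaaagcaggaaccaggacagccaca
Mcpt4: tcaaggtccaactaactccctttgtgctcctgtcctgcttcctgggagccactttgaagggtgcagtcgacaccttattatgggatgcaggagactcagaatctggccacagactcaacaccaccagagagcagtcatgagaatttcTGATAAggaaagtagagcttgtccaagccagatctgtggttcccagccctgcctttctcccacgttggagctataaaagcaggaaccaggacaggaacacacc
Cma1: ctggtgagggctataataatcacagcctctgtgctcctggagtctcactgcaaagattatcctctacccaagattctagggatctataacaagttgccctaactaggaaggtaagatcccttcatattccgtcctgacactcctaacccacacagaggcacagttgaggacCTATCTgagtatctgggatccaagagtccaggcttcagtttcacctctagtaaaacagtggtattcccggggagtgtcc
Cpa3: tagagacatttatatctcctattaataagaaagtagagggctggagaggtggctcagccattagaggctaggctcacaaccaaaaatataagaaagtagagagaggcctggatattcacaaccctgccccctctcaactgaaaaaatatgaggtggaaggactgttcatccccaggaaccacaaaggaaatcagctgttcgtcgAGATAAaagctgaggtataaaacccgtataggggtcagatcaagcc
Fcer1a: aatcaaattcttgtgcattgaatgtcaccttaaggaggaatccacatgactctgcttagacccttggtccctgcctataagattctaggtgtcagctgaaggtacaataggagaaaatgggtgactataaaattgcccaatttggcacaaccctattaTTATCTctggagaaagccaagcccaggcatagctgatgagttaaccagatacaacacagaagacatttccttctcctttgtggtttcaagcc
Each of these 5 windows held 1 match, starting 99 bases before the start in *Mcpt1*, 103 in *Mcpt4*, 79 in *Cma1*, 46 in *Cpa3* and 92 in *Fcer1a*. The window of *Kit*, at chr5:75574737-75574986 on the plus strand, held none of these letters. Of the 32851 promoter windows of this length, 26.5% held at least 1 match. The *Mcpt1* and *Mcpt4* windows are near copies, with 212 identical bases among 240 aligned (88.3%), and their matches lie in the same stretch, so they are not separate observations. The sequence TATAAA on the same strand lay 28 bases before the start in *Mcpt1*, 32 in *Mcpt4* and 31 in *Cpa3*, and 125 bases before it in *Fcer1a*, and it was present in 7.59% of all windows. An E-box searched on both strands, with the letters CACGTG or CATGTG, was in the *Fcer1a* window alone among the 6, 208 bases before the start, and in 17.6% of all windows. A match is a description of the letters and not a binding site.

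Adenomas were first compared with healthy small intestine, the tissue in which they arise in this model. All 8 mast cell genes had higher means in adenomas, and no adenoma array overlapped a small intestine array for any of them. The share of all genes without such overlap was not computed, so this is not read as particular to the members. In limma 60% of all genes tested had an unadjusted p under 0.05 in either direction. Of the 8, 6 were called higher and 0 lower, whereas 11.3% of the 22094 genes tested were called higher and 11.1% lower. The median log2 difference was 5.11 over the 8 genes and -0.15 over all genes tested. *Cma1*, *Cpa3* and *Fcer1a* entered the test through their adenoma signal, since they were not well above background on all small intestine arrays. The count and the median of the 8 genes are therefore not read against those of all genes.

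The mucosal chymases differed by the widest margins among small intestine arrays. *Mcpt1*, which encodes the soluble mucosal chymase found in the blood during helminth infection, gave 4.03, 5.58 and 5.47 on the adenoma arrays and -0.98, -2.33 and 2.85 in small intestine. The adenoma arrays agreed within 2.92-fold, while the small intestine arrays spanned 36.1-fold, with replicate 3 far above the other two. The log2 difference was 5.18 ± 1.24 (SE), or 36.3-fold, and its adjusted p of 0.0121 in limma missed the threshold. *Mcpt2*, whose product has little protease activity, gave 3.84, 5.14 and 4.79 in adenomas against -2.34, -3.1 and 1.57 in small intestine. It rose by 5.88 ± 1.14 on the log2 scale, or 58.8-fold (adjusted p = 0.00541 in limma). The same small intestine array was the high one for both genes.

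The genes of the connective-tissue type rose as well. *Mcpt4*, a chymase similar in specificity to human chymase, gave 3.93, 5.36 and 5.31 in adenomas and -1.32, -1.9 and 2.54 in small intestine, a rise of 5.09 ± 1.12 (34.1-fold, adjusted p = 0.00877 in limma). *Cma1*, the mouse chymase with elastase-like activity also called Mcpt5, gave -2.22, -0.58 and -0.08 in adenomas and was not well above background on any small intestine array. Adenomas were at least 11.9-fold higher (adjusted p = 0.000414 in limma), with measured means of -0.96 and -6.09. The size of this difference depends on the treatment of background, since the log2 difference was 2.16 on the authors' table (adjusted p = 0.00534 in limma) and 2.01 with normexp background correction (adjusted p = 0.00439 in limma), both smaller than the bound. Small intestine replicate 3, on which *Mcpt1*, *Mcpt2* and *Mcpt4* were high, therefore showed no *Cma1* signal above background.

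*Tpsb2*, which encodes a tryptase stored with heparin, was read by a pair of probes on chromosome 17. The brighter, at chr17:25504819-25504878 on the plus strand, gave -0.34, 0.79 and 0.85 in adenomas and -2.64, -2.38 and -1.94 in small intestine, a rise of 2.75 ± 0.36 (6.74-fold, adjusted p = 0.00113 in limma). The other, at chr17:25504493-25504552 on the plus strand, rose by 3.17 ± 0.48 (9.02-fold, adjusted p = 0.00199 in limma). The small intestine arrays of *Tpsb2* lay within 1.63-fold of each other on the brighter probe, and replicate 3 did not stand out there.

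*Cpa3*, a carboxypeptidase that trims peptides left by the chymases, was measured by a probe at chr3:20115674-20115733 on the minus strand. It gave -0.12, 1.3 and 1.8 in adenomas, and in small intestine -2.24 on replicate 3 and -6 and -6.29 on arrays that were not well above background. It rose by 5.84 ± 1.08 on the log2 scale (adjusted p = 0.0046 in limma), by 3.71 on the authors' table and by 3.56 with normexp background correction. *Fcer1a*, the IgE-binding chain of the high-affinity receptor, was measured at chr1:175151438-175151497 on the minus strand and followed the same order. It gave -1.05, 0.45 and 0.53 in adenomas, -2.61 on small intestine replicate 3, and -5.94 and -6.35 on the other small intestine arrays, which were not well above background. It rose by 4.94 ± 0.98 (adjusted p = 0.006 in limma), by 2.79 on the authors' table and by 2.69 with normexp. The sizes of both differences rest on small intestine values of which 1 of 3 was well above background.

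*Kit* was the member with the smallest difference. Its probe, at chr5:76052394-76052453 on the plus strand and spotted 2 times per array, gave 1.58, 0.81 and 0.7 in adenomas and 0.62, -0.12 and 0.02 in small intestine. The groups did not overlap, but the log2 difference of 0.86 ± 0.3 (1.81-fold, adjusted p = 0.0493 in limma) reached neither threshold.

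Without small intestine replicate 3, 7 of the 8 genes were called, and *Mcpt1* rose by 6.68 (adjusted p = 0.000799 in limma). Without small intestine replicate 1 or 2, or without any 1 of the adenoma arrays, 2 were called in each case. *Cma1* and *Tpsb2* were called under each of the alternatives run for them. Within slide 1, with 2 arrays of each group, the differences were 3.82 for *Mcpt1*, 4.7 for *Mcpt2*, 5.01 for *Cma1* and 0.82 for *Kit*, and within slide 2, with 1 array of each, they were 7.91, 8.24, 5.38 and 0.93. With slide as a block 2 genes were called.

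**Figure D2:**
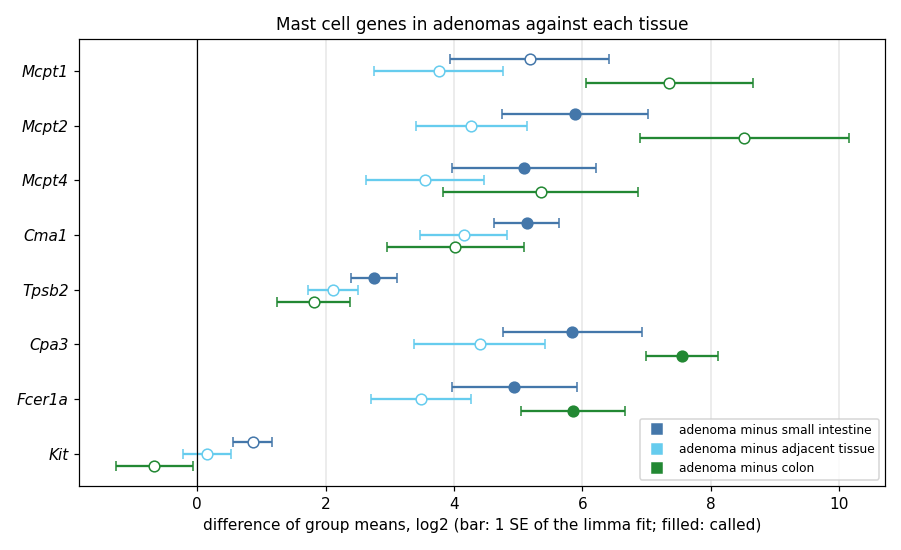
Log2 difference of group means (horizontal axis) of each mast cell gene between adenomas and each normal tissue, with 1 SE of the limma fit, and filled where called. Against small intestine 6 genes are filled, against adjacent tissue 0 and against colon 2, and Kit lies nearest to 0 in all comparisons.

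Adenomas were next compared with the tissue beside them in the same mouse, which asks whether the difference lies between adenoma and adjacent tissue of 1 animal. The 7 genes other than *Kit* had higher signals on every adenoma array than on either adjacent array, but 0 of 8 were called by limma. Here too the share of all genes without overlap was not computed. At an unadjusted p under 0.05 there were 7 genes higher, where 38.3% of all genes tested had a p under 0.05 in either direction. *Cma1*, *Cpa3* and *Fcer1a* again entered the test through their adenoma signal, so the 7 are not read against that share. Calls were rare here, at 2.4% of 22199 genes higher and 1.78% lower.

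The adjacent arrays differed widely from each other. *Mcpt2* gave 1.75 on adjacent replicate 1 and -1.12 on replicate 2, and the difference from adenomas was 4.27 ± 0.86 (19.3-fold, adjusted p = 0.0253 in limma). *Mcpt1* gave 2.91 and -0.36, with a difference of 3.76 ± 1 (adjusted p = 0.0503 in limma), and *Mcpt4* gave 2.8 and -0.17, with a difference of 3.55 ± 0.92 (adjusted p = 0.0468 in limma). Replicate 1 was the higher array for all of these chymases and for both genes named next. *Cpa3* gave -1.81 on replicate 1 and -5 on replicate 2, where it was not well above background, and *Fcer1a* gave -2.4 and -4.64 likewise. Their differences from adenomas were 4.4 ± 1.02 (adjusted p = 0.0361 in limma) and 3.49 ± 0.78 (adjusted p = 0.0327 in limma).

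*Cma1* was not well above background on either adjacent array, and adenomas were at least 11.5-fold higher (adjusted p = 0.0156 in limma, measured means -0.96 and -5.11), although the log2 difference was 2.13 on the authors' table and 1.92 with normexp. *Tpsb2* gave -1.57 and -1.81, and its difference was 2.12 ± 0.39 (4.36-fold, adjusted p = 0.0204 in limma). *Kit* gave 0.42 and 1.34 in adjacent tissue, which overlapped the adenoma arrays (difference 0.15 ± 0.38, adjusted p = 0.795 in limma). Without adjacent replicate 1, 1 of the 8 genes was called, in a fit where the lone adjacent array is assumed to vary like the adenoma arrays. Within slide 1 (2 adenoma arrays and 1 adjacent) the differences were 2.57 for *Mcpt2*, 3.41 for *Cma1* and 0.72 for *Kit*, and within slide 2 (1 array of each) 6.25, 5.08 and -0.53.

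Adjacent tissue and small intestine overlapped for *Mcpt1*, *Mcpt2*, *Mcpt4* and *Kit*. Of the 5 genes tested 0 were called by limma, and 0 had an unadjusted p under 0.05, while 0.00924% of 21641 genes were called higher in adjacent tissue and 0% lower. The differences were 1.43 ± 1.68 for *Mcpt1*, 1.61 ± 1.54 for *Mcpt2*, 1.54 ± 1.51 for *Mcpt4*, 0.63 ± 0.28 for *Tpsb2* and 0.71 ± 0.37 for *Kit*. In each of these tissues 1 array carried *Mcpt1*, *Mcpt2* and *Mcpt4* at a scaled log2 signal of 1.57 or more and the other or others at -0.17 or less. *Cpa3* and *Fcer1a* were well above background on that same array alone in both groups and were not tested.

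In the colon the members did not move as 1 set. *Mcpt1* gave -3.64, -4.08 and 0.74, and *Mcpt2* was well above background on replicate 3 alone (0.04), the array that carried enterocyte genes. *Mcpt4* gave 1.12, -4.13 and 1.58. *Cma1* was well above background on replicate 1 alone (-2.74), where *Mcpt4* was present and *Mcpt2* was not well above background. *Cpa3* and *Fcer1a* were not well above background on any colon array. *Tpsb2* gave -2.36, -0.44 and -1.32.

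*Kit* was highest in colon, at 2.33, 2.4 and 0.37, with the low value again on replicate 3. Against small intestine its difference was 1.53 ± 0.58 (2.89-fold, adjusted p = 0.184 in limma). Of the 5 genes tested between colon and small intestine, 0 were called by limma and 1, *Kit*, had an unadjusted p under 0.05, while 0.00484% of 20645 genes were called higher in colon and 0.00484% lower. Without colon replicate 3, *Kit* was called, at 2.2 (adjusted p = 0.00578 in limma), and *Mcpt1* and *Mcpt2* differed by -3.71 and -4.63 (adjusted p = 0.106 and 0.0513 in limma). Within slide 1, which holds colon replicate 2 and 2 small intestine arrays, colon differed by 2.08 for *Kit*, -5.01 for *Mcpt1* and -4.74 for *Mcpt4*. Within slide 2, with colon replicates 1 and 3 and small intestine replicate 2, it differed by 1.48, 0.88 and 3.25. The signs of both chymases were thus opposite on the slides, but for *Mcpt1* this rests on colon replicate 3. On slide 2, *Mcpt1* gave -3.64 and 0.74 on colon replicates 1 and 3 and -2.33 on small intestine replicate 2. *Mcpt4* gave 1.12 and 1.58 against -1.9 on the same arrays.

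Against colon, 2 of the 8 genes were called higher in adenomas and 0 lower, against 2.07% and 1.63% of 21861 genes. *Cpa3* was at least 46.3-fold higher in adenomas (adjusted p = 0.00197 in limma, measured means 0.99 and -6.55), and *Fcer1a* at least 22.9-fold higher (adjusted p = 0.00941 in limma, measured means -0.03 and -5.89). Both genes entered the test through their adenoma signal, so their count is not read against that share. On the authors' table the log2 differences were 4.26 (adjusted p = 0.0051 in limma) and 3.16 (adjusted p = 0.0087 in limma), and with normexp 4.03 (adjusted p = 0.00731 in limma) and 3.03 (adjusted p = 0.0179 in limma), all smaller than the bounds. The difference of *Mcpt2* was 8.52 ± 1.63 (adjusted p = 0.0249 in limma) and that of *Mcpt1* 7.35 ± 1.3 (adjusted p = 0.0196 in limma). Without colon replicate 3 there were 4 calls, as *Mcpt2* rose by 10.51 (adjusted p = 0.000174 in limma) and *Mcpt1* by 8.89 (adjusted p = 0.000441 in limma). Without colon replicate 1, or without adenoma replicate 2 or 3, there were 0 calls, and with slide as a block also 0. Within slide 1 and slide 2 the differences were 7.64 and 7.73 for *Cpa3* and 6.19 and 6.06 for *Fcer1a*. *Kit* was lower in adenomas than in colon by 0.67 ± 0.6 on the log2 scale (adjusted p = 0.517 in limma), with overlap. Without colon replicate 3 it was lower by 1.34 (log2 difference -1.34, adjusted p = 0.0228 in limma), with no overlap.

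CT26 is a culture of tumor cells with no other cell type, and most members were not well above background in it. The chymase genes, *Fcer1a* and *Kit* were so on 0 of 3 arrays, and *Cpa3* on 1. Of the 4 genes tested against colon 3 were called lower, while 16.2% of 21692 genes were called lower and 21% higher. These 3 genes entered the test through their colon signal, so their count is not read against that share. *Kit* was at least 126-fold lower in CT26 (adjusted p = 1.44e-05 in limma, measured means -7.22 and 1.7), *Mcpt4* at least 27.8-fold lower (adjusted p = 0.00531 in limma, measured means -6.98 and -0.48) and *Mcpt1* at least 7.74-fold lower (adjusted p = 0.00941 in limma, measured means -7.17 and -2.33). On the authors' table *Kit* alone was called, and the log2 differences of the 3 genes were -5.2, -3.17 and -1.76, all smaller in size than the bounds. The bounds therefore hold for the main treatment of background only. Without colon replicate 3 the call of *Mcpt4* was lost (adjusted p = 0.0103 in limma). Without colon replicate 1 or any 1 CT26 array, 1 gene was called. Within slide 1 and slide 2 the differences were -9.55 and -8.73 for *Kit* and -2.77 and -8.48 for *Mcpt4*.

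The *Tpsb2* probes disagreed in CT26. The brighter was well above background on all 3 arrays, at -2.04, -2.45 and -1.71, and differed from colon by -0.69 ± 0.5 (adjusted p = 0.287 in limma). The other was not well above background on any of them, and CT26 was at least 5.53-fold lower than colon by it (adjusted p = 0.000116 in limma). Both probes rose in adenomas, so the direction there does not depend on the probe.

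Across the 11 tissue arrays, the genes fell into a tight set and a looser remainder. The arrays share groups, so the correlations are descriptions. Pearson's r was 0.993 between *Mcpt1* and *Mcpt2*, 0.983 between *Cpa3* and *Fcer1a*, 0.98 between *Mcpt1* and *Fcer1a* and 0.907 between *Mcpt1* and *Mcpt4*, the last of which is counted with the connective-tissue type. *Cma1* followed *Mcpt4* (0.803) more closely than *Mcpt1* (0.645), and *Tpsb2* followed *Fcer1a* at 0.776. *Kit* had r of -0.419 with *Mcpt1*, -0.283 with *Fcer1a* and 0.153 with *Cma1*.

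**Figure D3:**
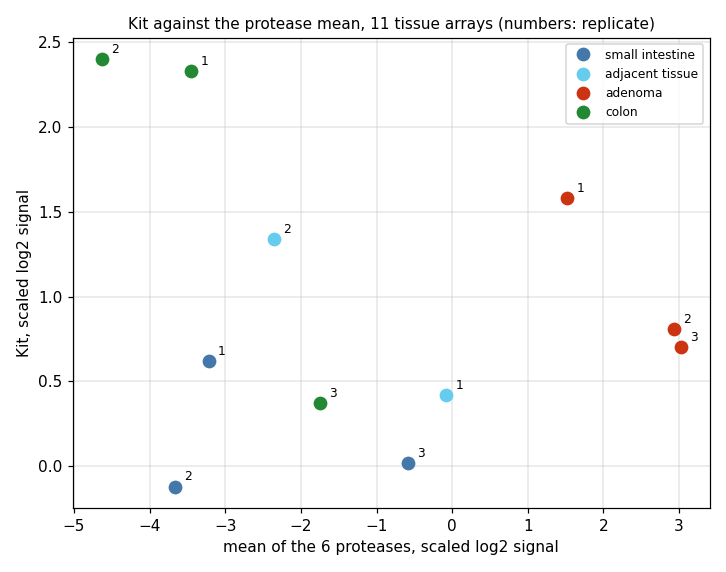
Scaled log2 signal of Kit (vertical axis) against the mean scaled log2 signal of the 6 proteases (horizontal axis) on the 11 tissue arrays, numbered by replicate. Colon replicates 1 and 2 have the highest Kit and protease means of -3.45 and -4.63, and adenomas have protease means of 1.52 to 3.02 at Kit signals of 0.7 to 1.58.

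Among 22598 genes, those closest to the mean of the 6 proteases over these arrays were *Mcpt-ps1* (r = 0.985), which shares part of its probe with *Mcpt4*, and *Cma2* (0.979), another chymase gene of the chromosome 14 cluster. They were followed by *Lrrc15* (0.968), a membrane protein with leucine-rich repeats, and by a pair of transcripts without a gene symbol (0.96 and 0.956). Those closest to *Kit* were *Foxa2* (0.966), a transcription factor of endoderm, *Pcca* (0.947), *Trim46* (0.946), *Mkx* (0.943) and *Tagap1* (0.942). With genes of interstitial cells of Cajal, *Kit* had r of 0.843 for *Thbs4* and 0.743 for *Ano1*, the chloride channel of these cells, but 0.536 for *Etv1*, 0.169 for *Gja1* and -0.159 for *Hand1*, and with smooth muscle genes between 0.07 for *Actg2* and 0.363 for *Smtn*.

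*Ano1* gave 5.51, 4.91 and 2.03 in colon, where the low value is again replicate 3, and 4.13 to 4.38 in adenomas. It was called higher in adenomas than in small intestine (log2 difference 2.46 ± 0.18, adjusted p = 0.000143 in limma) and than in adjacent tissue (2.31 ± 0.24, adjusted p = 0.00554 in limma). Of the 5 Cajal cell genes tested between adenomas and small intestine, 1 was called higher and 1 lower, *Hand1* (-2.02, adjusted p = 0.00873 in limma). Of all genes tested in that comparison, 11.3% were called higher and 11.1% lower. The summed signal of the list was 4.21 to 4.47 in adenomas, 1.97 to 2.43 in small intestine, 2.02 to 2.77 in adjacent tissue and 2.51 to 6.68 in colon. A sum adds different probes, so here and below it mostly follows the brightest genes. In adenomas and small intestine that gene was *Ano1*, with means of 4.22 and 1.76. The median of the list overlapped, at -2.14 to -1.06 in adenomas and -3.34 to -1.73 in small intestine. *Gja1* and *Thbs4* had higher means in adenomas, and *Etv1* and *Hand1* lower ones. That of 7 smooth muscle genes was 6.6 to 6.88 in adenomas, 7.14 to 9.02 in small intestine, 7.2 to 9.21 in adjacent tissue and 9.04 to 9.51 in colon. The part of either cell type in the *Kit* signal was not tested.

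Other genes of mast cell function were taken from a list of 35, of which 34 were found on the array and 21 were tested between adenomas and small intestine. Of these 5 were called higher and 2 lower, with a median difference of 0.03. Among the 22094 genes tested in this comparison, 11.3% were called higher and 11.1% lower. The highest was *Il1rl1*, the receptor on mast cells and other type 2 immune cells for the cytokine encoded by *Il33*, which gave 3.04, 2.6 and 2.11 in adenomas and -2.77, -1.75 and -1.94 in small intestine (log2 difference 4.74 ± 0.34, adjusted p = 0.00014 in limma). *Il33*, an alarm cytokine of epithelial and stromal cells, gave 4.33, 4.05 and 4.1 in adenomas and -1.27, 1.72 and 1.7 in small intestine (3.44 ± 0.77, adjusted p = 0.00932 in limma). Both genes lay above every normal tissue array in all 3 adenomas.

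**Figure D4:**
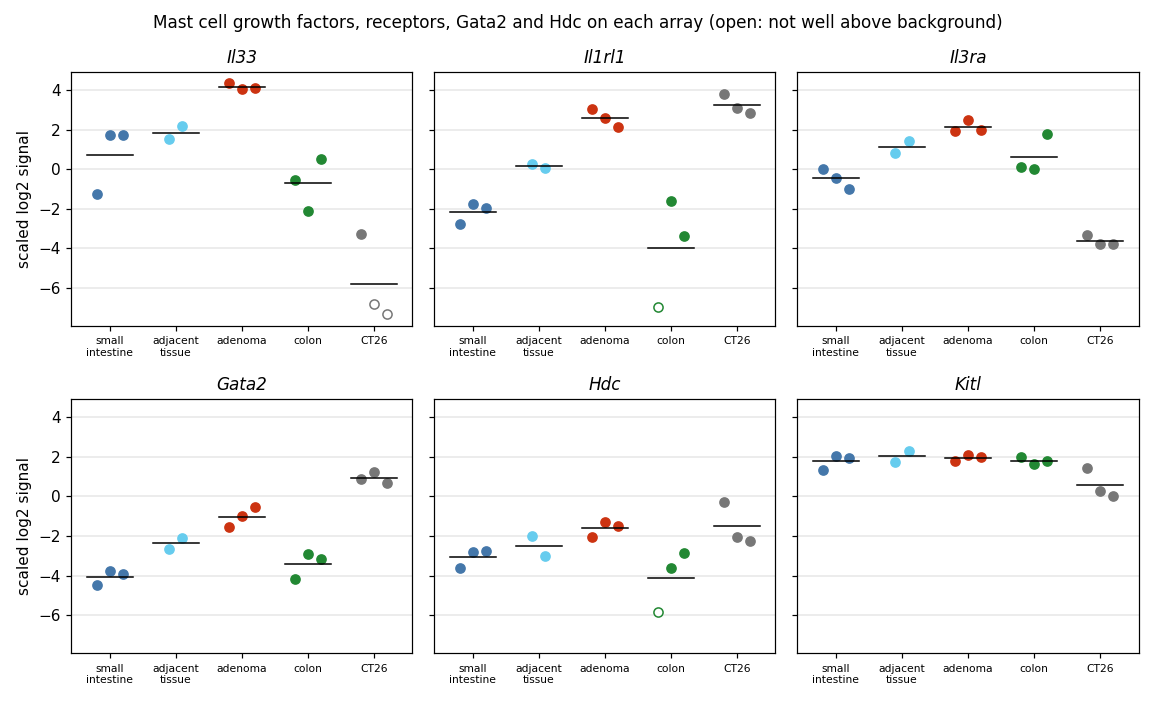
Scaled log2 signal (vertical axis) of Il33, Il1rl1, Il3ra, Gata2, Hdc and Kitl on each of the 14 arrays, by group. Filled points are well above background and the line is the group mean. Il33 and Il1rl1 are higher on the 3 adenoma arrays than on any other tissue array, Il1rl1 and Gata2 are also high in CT26, and Kitl is near 2 in all tissues.

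The same pair, *Il33* and *Il1rl1*, made up the only 2 calls of this list between adenomas and adjacent tissue, with log2 differences of 2.31 ± 0.25 (adjusted p = 0.00593 in limma) and 2.42 ± 0.29 (adjusted p = 0.00722 in limma), among 21 genes tested. Of all 22199 genes tested there, 2.4% were called higher and 1.78% lower. Adjacent tissue gave 1.5 and 2.2 for *Il33* and 0.25 and 0.07 for *Il1rl1*. Against colon, *Il33* was the 1 gene of the list called higher in adenomas (4.89 ± 0.64, adjusted p = 0.00824 in limma), where 2.07% of 21861 genes were called higher.

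The other calls against small intestine were *Il3ra*, a subunit of the receptor for a mast cell growth factor (2.6 ± 0.29, adjusted p = 0.000648 in limma), *Gata2* (3.04 ± 0.31, adjusted p = 0.000421 in limma) and *Hdc*, the enzyme that makes histamine (1.47 ± 0.3, adjusted p = 0.007 in limma). *Gata2* gave -1.56, -0.97 and -0.53 in adenomas, -2.65 and -2.1 in adjacent tissue and -4.46 to -3.79 in small intestine. Those called lower were *Tpsg1*, a membrane-anchored tryptase (fell by 1.48 ± 0.32, adjusted p = 0.00878 in limma), and *Ltc4s*, which makes leukotriene C4 (fell by 1.56 ± 0.3, adjusted p = 0.0052 in limma). Small intestine replicate 3 was not the highest of its group for *Il1rl1*, *Il3ra* or *Gata2*.

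Several partners of the members were tested and not called, and *Ms4a2* and *Tpsab1* did not pass the background filter and were not tested. *Kitl*, the ligand of KIT, had a mean of 1.95 in adenomas and 1.77 in small intestine (difference 0.18 ± 0.22, adjusted p = 0.52 in limma). *Fcer1g*, the signalling chain of the IgE receptor, which other leukocytes use too, differed by 0.32 ± 0.35 (adjusted p = 0.473 in limma). *Ms4a2*, the third chain of that receptor, was well above background on 1 of 3 adenoma arrays and on none of the small intestine arrays. *Tpsab1*, the tryptase gene next to *Tpsb2*, was so on 2 of 3 adenoma arrays, at -4.08 and -3.48, and on none elsewhere. *Mitf*, a transcription factor of mast cells and melanocytes, differed by 0.96 ± 0.34 (adjusted p = 0.048 in limma).

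CT26 cells had high signals of some of these genes, while the chymase genes were not well above background on any CT26 array. Of the 20 genes of the list tested against colon, 4 were called higher and 8 lower, with a median difference of -1.07. Over all 21692 genes tested there, 21% were called higher and 16.2% lower. The count called higher is near that share and is not read as a result about the list. *Il1rl1* gave 3.82, 3.07 and 2.82 and *Gata2* 0.89, 1.21 and 0.7, and both were called higher than in colon, by 7.23 ± 1.19 (adjusted p = 0.00176 in limma) and 4.34 ± 0.39 (adjusted p = 8.58e-05 in limma). *Mitf* was also called higher there, by 3.13 ± 0.37 (adjusted p = 0.00033 in limma). Among those called lower were *Fcer1g* (-3.34 ± 0.38, adjusted p = 0.00028 in limma), *Il3ra* (-4.27 ± 0.5, adjusted p = 0.000321 in limma) and *Il33* (-5.09 ± 1.11, adjusted p = 0.0064 in limma).

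Markers of other leukocytes differed in both directions. Of the 4 neutrophil and monocyte genes on the array, 2 were tested between adenomas and small intestine and both were called higher, *S100a9* by 5.92 ± 0.26 (adjusted p = 4.83e-05 in limma) and *S100a8*, which was at least 12.4-fold higher (adjusted p = 4.15e-05 in limma). *Cxcr2* was not well above background on any array of either group, and the summed signal of the 4 genes was 1.59 to 1.95 in adenomas and -3.71 to -3.14 in small intestine. That sum mostly follows *S100a9*, with means of 1.46 and -4.46. Both *S100a8* and *S100a9* were also called against adjacent tissue (3.93 ± 0.47, adjusted p = 0.00714 in limma, and 3.36 ± 0.21, adjusted p = 0.00216 in limma). Of 6 macrophage genes tested against small intestine 1 was called higher, *Cd68* (means -3.84 and -5.76). The 1 eosinophil gene tested, *Prg2*, was called higher (means -2.57 and -4.47), and its mean was -2.6 in adjacent tissue. These called genes entered the test through their adenoma signal, so their counts are not read against the 11.3% of all genes called higher.

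Genes of cytotoxic lymphocytes and T cells went the other way. Of 5 cytotoxic lymphocyte genes 4 were called lower in adenomas than in small intestine, among them *Gzma* (-3.19 ± 0.34, adjusted p = 0.000505 in limma), and of 5 T cell genes 3, among them *Cd3g* (-3.05 ± 0.29, adjusted p = 0.000328 in limma). Of all genes tested in this comparison, 11.1% were called lower. The summed signals were 3.41 to 3.67 in adenomas against 5.76 to 6.87 for the former list, and 3.09 to 3.29 against 5.14 to 6.12 for the latter. Of the 2 B cell genes tested 0 were called (log2 difference 0.77 with adjusted p = 0.00573 in limma for *Cd79b* and 0.04 with adjusted p = 0.9 for *Cd79a*). Of 3 genes of all leukocytes, *Ptprc*, the common leukocyte antigen, was called lower (-1.43 ± 0.26, adjusted p = 0.00396 in limma), while *Cd53* differed by 0.52 ± 0.25 (adjusted p = 0.123 in limma) and *Laptm5* by 0.27 ± 0.34 (adjusted p = 0.513 in limma), neither of which was called.

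Basophils share *Fcer1a* and *Cpa3* with mast cells. Of 3 basophil genes 0 were tested. *Mcpt8*, a protease of basophils, was well above background on small intestine replicate 3 (-1.82) and on adenoma replicates 2 and 3 (-2.9 and -2.42), and on no other array. *Prss34*, another basophil protease, was so on the same 2 adenoma arrays (-4.6 and -4.87) and on colon replicate 2 (-4.79), and *Cd200r3* on these 2 adenoma arrays alone (-4.36 and -3.76). The summed signal of the 3 genes was -3.46 to -1.76 in adenomas, -4.66 to -1.6 in small intestine and -4.44 to -4.31 in adjacent tissue. The part of basophils in the *Fcer1a* and *Cpa3* signals was not tested.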

How the data were processed

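RNA of 14 whole-tissue or cell line samples was labelled with Cy3 and hybridized to SurePrint G3 mouse arrays of 60-base probes, with 62976 spots each. The authors deposited scanner output of Feature Extraction 10.7.3.1, with a background-subtracted intensity per spot that is not yet normalized across arrays. The deposited table of log2 values, normalized by the authors by a method not given in the sources used here, served as an alternative, and its 28 flag and 21 comparison columns were not used. Control and outlier spots were left out, log2 signals were set against the 75th percentile of their array and repeated spots averaged. Where a gene had more than 1 probe, the one with the highest mean was used. Pairs were compared with limma 3.58.1 (R 4.3.3) on their own arrays, over probes that all arrays of 1 or both groups showed well above background, and the fit was tested on simulated data. A group with no array well above background gave a bound, which takes, array by array, the larger of the probe's signal there and the weakest signal counted as above background. Bounds were computed for this treatment of background alone. Arrays lay on 2 slides, each holding every group. The members, gene lists and rules were chosen with earlier results of these data known. Named list genes were mainly taken from those called, at most 4 per group and comparison, and from fixed partners of the members. Not every called list gene is named. The list genes *Syk*, *Siglecf* and *Ly6c2* were not analysed here, and *Adgre1* was read under its older symbol *Emr1*. Alternatives comprised the authors' table, background correction, quantile normalization, filters, blocks, thresholds and the omission of each array.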

Additional observations from a re-analysis of the deposited data

How the results depend on the processing

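Precision is limited by 2 or 3 arrays per group, by adenoma and adjacent pieces of 1 mouse, and by signals near background, which bound the folds of *Cma1*, *Cpa3* and *Fcer1a*. Of the counts of called members under the alternatives, 69 stayed within 1.5 times and 32 moved, and of the log2 differences 497 kept their direction and side of the threshold, 59 lost and 26 gained the call and 7 reversed. Causes were not tested. Between adenomas and small intestine the 6 calls became 3 when every probe was tested, 2 with slide as a block, and 2 to 7 without single arrays. Between adenomas and adjacent tissue the 0 calls became 1 with normexp background correction, 1 with an intensity trend, 6 at an adjusted p of 0.05, and 0 to 1 without single arrays. Between colon and small intestine there were 0 to 1 calls without single arrays. Between CT26 and colon the 3 calls became 1 on the authors' table, 1 with normexp, 1 with quantile normalization, 0 where every array of both groups had to be well above background, and 1 to 3 without single arrays. Between adenomas and colon the 2 calls became 1 when every probe was tested, 0 under the strict background filter, 5 with all 5 groups in one fit, 0 with slide as a block, 4 at an adjusted p of 0.05, and 0 to 4 without single arrays.

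Correlations of same-numbered deviations from the group means were between -0.322 and 0.291. With means of 2 or 3 arrays they cannot decide whether the replicate numbers pair the samples. The 2 adjacent arrays deviate from their mean by equal and opposite amounts. In fits with a replicate block, the calls between adenomas and colon became 1, and they stayed at 6 between adenomas and small intestine, at 3 between CT26 and colon and at 0 in the other comparisons. The titles number the adjacent pieces 2 and 3, which would pair them with adenomas 2 and 3 instead. In a check chosen after seeing the data, these deviations correlated at 0.0356 and 0.0257, and with the title number as a block 0 members were called between adenomas and adjacent tissue. The differences that reversed were *Kit* between adenomas and adjacent tissue, at -0.31 without adjacent replicate 1 and -0.12 without adenoma replicate 1 or with the title number as a block (range -0.31 to 0.61 without single arrays), *Mcpt1* between adjacent tissue and small intestine, at -0.21 without adjacent replicate 1 (range -0.21 to 3.06), and *Mcpt4* between colon and small intestine, at 0.1 on the authors' table, 1.13 without small intestine replicate 3 and 1.58 without colon replicate 2 (range -1.28 to 1.58). None of these 7 values was called, and without adjacent replicate 1 the lone adjacent array is assumed to vary like the other group.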
